A study of Homo sapiens with 9 samples.

Results

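Peaks of the zinc-finger protein ZNF395 were described at the transcription start sites of 5 genes, EIF3F, KPNA2, KAT6A, PPFIA3 and ABTB2, in renal carcinoma cells. The genes were chosen by measured values: each start lies at one of the highest-ranked ZNF395-eGFP peaks of 786-O cells that was also called in A498 cells. Their high rank in 786-O and their presence in A498 are therefore given as a description and not as findings. All peaks within 10 kb of a start were taken, which gave 19 of the 52875 peaks of the 5 lists: 6 of ZNF395-eGFP in 786-O, 5 of ZNF395-eGFP in A498, 8 of MYC, and 0 in either list of parental cells. 786-O and A498 are established human lines of clear cell renal cell carcinoma. In the tagged cells an eGFP tag had been knocked in at ZNF395, after electroporation of a donor and a guide plasmid; the labels do not say whether they were 1 clone or a pool. ZNF395 was precipitated through the tag with a GFP antibody, the same antibody was used on parental cells of both lines, which have no tag, and MYC was precipitated from parental 786-O cells.

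Each group was 1 library, so no value here has a replicate check, no test between groups was possible and no p-value is given. Titles were followed where labels conflict: A498 is in the titles only, beside a cell line entry of 786-O, and the target entry of the MYC library is P300, although title and antibody are MYC. The authors' peak scores were read as −log10 values of a p or q, from the lowest score of each list being slightly over 2, and each library was called against 1 control library. Scores therefore rank the peaks of 1 list and their sizes were not compared between lists. The lists held 20034 (ZNF395-eGFP, 786-O), 7718 (ZNF395-eGFP, A498), 20199 (MYC), 3361 (parental 786-O) and 1563 peaks (parental A498). Read counts are not part of the lists, and the depth at each peak is therefore unknown.

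ZNF395 is a DNA-binding zinc-finger protein, and GCCGGCG is a sequence element that has been reported for it. MYC is a transcription factor of cell growth that, with its partner MAX, binds the E-box CACGTG at many active promoters. ChIP-seq finds where a protein sits on chromatin: fragments crosslinked to it are precipitated and sequenced, and a peak is a stretch with more fragments than the control. The 5 genes serve different functions. EIF3F encodes a subunit of the translation initiation factor eIF3, and KPNA2 encodes an importin alpha, an adaptor that carries proteins with a nuclear localisation signal into the nucleus. KAT6A is a histone acetyltransferase of the MYST family and acts in a complex on chromatin. PPFIA3 encodes a liprin alpha, a scaffold protein of synapses, and ABTB2 a protein with ankyrin repeats and a BTB domain.

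The ZNF395-eGFP peaks of 786-O span the hg19 starts of all 5 genes. The promoters of 4 are shown, because KAT6A had no match in the promoter table used. Each runs from 250 bases before to 50 bases after the start in the RefSeq promoter table (GRCh38.p14), in the direction of transcription. The windows are chr11:7987087-7987386 on the plus strand (EIF3F), chr17:68035485-68035784 plus (KPNA2), chr19:49119294-49119593 plus (PPFIA3) and chr11:34357961-34358260 minus (ABTB2). They were matched by gene symbol, because the peaks are on the hg19 build and coordinates were not converted. The start of a window may therefore differ from the hg19 start used for the peaks, and motif distances refer to the start of the window. Capitals mark every CCGG and each GCCGGCG and CACGTG, read on both strands.
EIF3F: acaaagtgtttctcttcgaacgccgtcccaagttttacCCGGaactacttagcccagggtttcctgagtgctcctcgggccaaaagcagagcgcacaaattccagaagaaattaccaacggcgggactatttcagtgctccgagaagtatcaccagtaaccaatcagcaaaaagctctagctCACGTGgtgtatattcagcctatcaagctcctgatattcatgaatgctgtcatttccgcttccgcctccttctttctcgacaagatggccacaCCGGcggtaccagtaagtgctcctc
KPNA2: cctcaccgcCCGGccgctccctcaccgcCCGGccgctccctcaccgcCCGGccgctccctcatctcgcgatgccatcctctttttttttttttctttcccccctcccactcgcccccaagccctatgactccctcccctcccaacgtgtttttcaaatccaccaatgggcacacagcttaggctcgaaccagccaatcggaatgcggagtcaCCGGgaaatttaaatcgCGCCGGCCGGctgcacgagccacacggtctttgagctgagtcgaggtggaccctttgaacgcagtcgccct
PPFIA3: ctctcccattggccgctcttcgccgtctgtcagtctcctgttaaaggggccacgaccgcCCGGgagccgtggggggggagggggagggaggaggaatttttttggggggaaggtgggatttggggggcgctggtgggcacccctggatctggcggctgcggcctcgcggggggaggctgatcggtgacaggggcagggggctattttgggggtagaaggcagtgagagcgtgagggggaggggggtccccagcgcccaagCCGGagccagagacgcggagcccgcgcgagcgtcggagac
ABTB2: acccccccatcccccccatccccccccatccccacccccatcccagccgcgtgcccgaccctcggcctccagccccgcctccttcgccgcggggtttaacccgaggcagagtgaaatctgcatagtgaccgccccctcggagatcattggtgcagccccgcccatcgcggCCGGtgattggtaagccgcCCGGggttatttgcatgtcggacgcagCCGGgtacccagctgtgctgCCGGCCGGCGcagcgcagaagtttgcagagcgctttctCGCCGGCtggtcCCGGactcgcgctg

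The promoters with most CCGG were those of ABTB2, with 7, and KPNA2, with 6, and these also held GCCGGCG. In ABTB2 that element occurred 2 times, on the given strand from 11 bases before the start and on the opposite strand from 24 bases after it. KPNA2 had 1, on the opposite strand from 21 bases before the start. EIF3F and PPFIA3 had 2 CCGG each and no GCCGGCG in these windows. Of 15842 windows of protein-coding genes, 1 per gene, 14.97% held GCCGGCG and 75.8% held CCGG, and the shares over all 27305 genes of the table were 10.998% and 62.6%. As many CCGG as in ABTB2 occurred in 7.28% of protein-coding windows and as many as in KPNA2 in 12.95%. Each GCCGGCG contains a CCGG, so these counts are not separate. All of these are matches of letters, and which of them ZNF395 occupied was not tested.

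The EIF3F promoter was the only one of the 4 with a CACGTG, 68 bases before the start, and 8.88% of protein-coding windows held one. EIF3F was also the poorest in G and C, at 49.7%, against 61.7% in KPNA2, 69.7% in both PPFIA3 and ABTB2, and a median of 62.7%. Its window held 15 CpG, KPNA2 26, PPFIA3 23 and ABTB2 30, around a median of 22. CCAAT, the letters of the CCAAT box, was found in all 4 promoters, against 36.4% of protein-coding windows. It occurred once each in EIF3F and PPFIA3 and 2 times each in KPNA2 and ABTB2. Read on the given strand only, CCAAT was in EIF3F and KPNA2 but not in PPFIA3 or ABTB2, against 21.1% of protein-coding windows. GGGCGG, the core letters of the GC box, was in KPNA2, PPFIA3 and ABTB2 (58.5% of windows), GGAAG, of ETS factors, in EIF3F and PPFIA3 (74.1%), and ACGTG in EIF3F and KPNA2 (23.7%). In EIF3F both ACGTG matches lie within the CACGTG. None of the 4 held TATAAA (9.63% of windows). All motifs were searched on both strands.

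EIF3F had the highest peak of both tagged lines. In 786-O it lay at chr11:8008444-8009350 (hg19), 907 bp wide, with a score of 313, and in A498 at chr11:8008542-8009322, 781 bp wide, with a score of 223. It was rank 1 in both lists, and no MYC peak and no parental peak was called within 10 kb of the start (chr11:8008867). Both peaks spanned the start, from 423 bp before to 483 bp after it in 786-O and from 325 before to 455 after in A498. Their midpoints were 35 bp apart, and the A498 peak lay wholly inside that of 786-O and had 86.1% of its width. Despite the highest score, the 786-O peak had only rank 2983 by width.

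PPFIA3 came next in both lines, at rank 3 of the 786-O list and rank 7 of the A498 list. The 786-O peak at chr19:49621787-49623557 had a score of 263 and was the widest of the 5, with 1771 bp (rank 260 by width), from 859 bp before to 911 bp after the start at 49622646. In A498 the peak at chr19:49622109-49622897 had a score of 175 and a width of 789 bp. A MYC peak at chr19:49622002-49622660 overlapped both, with a MYC score of 36.9 and rank 4616 of 20199. It ended 14 bp past the start, so that nearly all of it lay upstream.

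The PPFIA3 window held 3 further peaks. A weak ZNF395-eGFP peak of 786-O (chr19:49617488-49617688, score 5.08, rank 17380) lay 4958 bp upstream of the start and overlapped a MYC peak of rank 10704 (chr19:49617444-49617757). The third, a MYC peak 8459 bp downstream (chr19:49631105-49631995, MYC score 37.3), had rank 4555, just above the MYC peak at the start itself, and no ZNF395-eGFP peak of either line. Among the 19 peaks it was the one farthest from a start, and the closest peaks beyond the 10 kb limit were at ABTB2, a MYC peak 12.6 kb downstream of the start and a ZNF395-eGFP 786-O peak that was also 12.6 kb away. In the RefSeq gene table LIN7B and C19orf73 neighbour PPFIA3 within 10 kb, and to which gene the further peaks belong was not analysed here.

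ABTB2 stood at rank 12 in 786-O and at rank 11 in A498. Its 786-O peak at chr11:34378905-34379949 was 1045 bp wide with a score of 240.5, around the start at 34379555 on the minus strand. The A498 peak at chr11:34379018-34380087, with a score of 151, was 1070 bp wide, and this was the only one of the 5 genes where the A498 peak was the wider (102% of the 786-O width). ABTB2 also had the highest MYC rank of the 4 genes with MYC, 1306 of 20199, for a peak at chr11:34379360-34380089 with a MYC score of 88.1 and a width of 730 bp. A second, weak MYC peak (chr11:34380588-34380808, rank 14320) lay 1033 bp upstream of the start and touched no ZNF395-eGFP peak.

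KPNA2 had rank 8 in 786-O, with a score of 243 and a width of 917 bp (chr17:66031473-66032389, start at 66031848). The A498 peak (chr17:66031698-66032154) was 457 bp wide, with a score of 88.4 and rank 29 of 7718. The 2 midpoints differed by only 5 bp, and the A498 peak covered the central 49.8% of the 786-O peak. The MYC peak at chr17:66031419-66032239 had a MYC score of 23.7 and rank 7318, the lowest rank of the 4 MYC peaks at the starts, although with 821 bp it was the widest of them.

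Of the 5 genes, KAT6A had the largest difference in peak width between the lines. In 786-O the peak at chr8:41908489-41910164 was 1676 bp wide with a score of 241 (rank 11), and it reached from 659 bp upstream to 1016 bp downstream of the start at 41909505, on the minus strand. The A498 peak at chr8:41909502-41909966 was 465 bp wide, with a score of 61.7 and rank 59, the lowest A498 rank of the 5 genes. It stopped 3 bp past the start and so covered only the upstream side of the promoter. The MYC library had 2 peaks inside the wide 786-O peak, one over the start (chr8:41909286-41909815, 530 bp, MYC score 27.7, rank 6318) and a weak one 601 to 792 bp downstream of it (chr8:41908713-41908904, MYC score 3.85, rank 19663). The RefSeq gene table lists KAT6A-AS1 and a small nucleolar RNA gene as neighbours of the start.

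**Figure D1:**
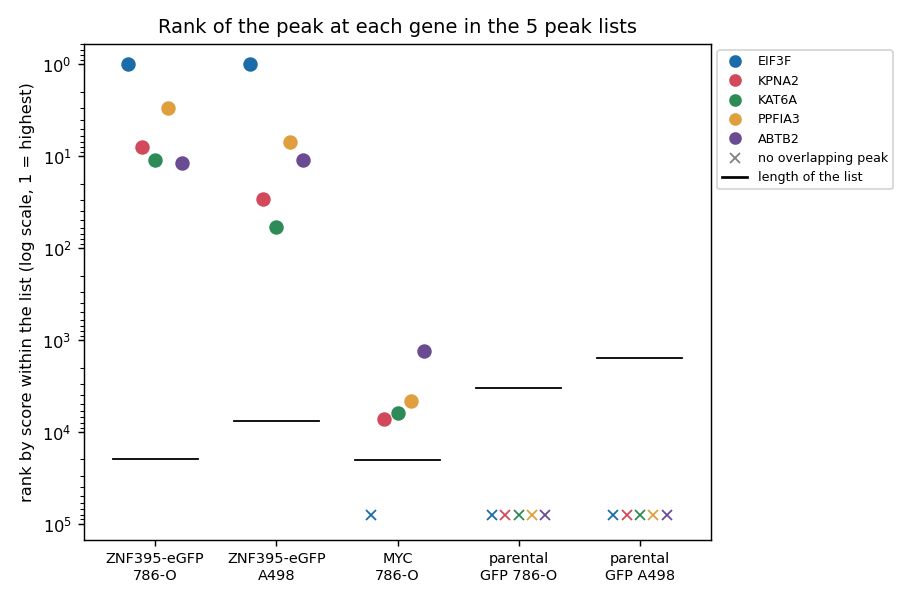
Rank by score (log scale, 1 at the top) of the peak at each gene in each list, with 1 point per gene and library; black lines mark the length of each list and crosses, placed below the lines, mark genes with no overlapping peak. The 5 genes, chosen by rank in 786-O, hold ranks 1 to 12 in ZNF395-eGFP 786-O and 1 to 59 in A498. The 4 MYC ranks lie between 1306 and 7318, and the parental lists have crosses only.

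The order of the genes was not the same in the 3 lists. EIF3F, PPFIA3, KPNA2, KAT6A and ABTB2 was the order in 786-O and EIF3F, PPFIA3, ABTB2, KPNA2 and KAT6A that in A498, with ABTB2, PPFIA3, KAT6A and KPNA2 in MYC. Of the 100 highest 786-O peaks, 83 overlapped a MYC peak, with a median MYC rank of 5231 (quartiles 1943 and 10231.5). The MYC peaks of PPFIA3, KAT6A and KPNA2 ranked between these quartiles, and that of ABTB2 ranked higher. The scores of KPNA2 (243), KAT6A (241) and ABTB2 (240.5) in 786-O differ so little that their order has no weight without replicates. In A498 the same 3 genes were farther apart, with scores of 88.4, 61.7 and 151. Between these ranks, the 786-O list held other sites at ranks 2, 4, 5, 6, 7, 9 and 10 that belong to none of the 5 genes.

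Of the 5 peaks, 4 overlapped a MYC peak, against 60.6% of all 20034 ZNF395-eGFP peaks of 786-O (background over the whole list) and 83.0% of its 100 highest (95% exact binomial interval 74.2 to 89.8, counting error only). The share among the 20 highest was 65.0% (40.8 to 84.6) and among the 500 highest 89.2% (86.1 to 91.8). By this rule of 1 bp, the 4 of 5 here lie near the share of the 100 highest peaks. The whole list and each set of highest peaks include the 5 peaks themselves. With 50% reciprocal overlap 2 of the 5 had a MYC peak (40.0% of the whole list and 55.0% of the 100 highest, 44.7 to 65.0). With midpoints within 200 bp 1 did (46.0% of the whole list and 57 of the 100 highest, interval 46.7 to 66.9%). Under the same rules the A498 counts were 2 of 5 (7.18% of the whole list, 51.0% of the 100 highest) and 4 of 5 (15.7% and 80.0%). All 5 overlapped a ZNF395-eGFP peak of A498, which the choice of genes fixed, and 20.5% of the whole list and 96.0% of the 100 highest did so.

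None of the 5 overlapped a GFP peak of parental 786-O, as 12.2% of all ZNF395-eGFP peaks of 786-O and 27.0% of the 100 highest (18.6 to 36.8) did. The same held for parental A498, with 3.93% of the whole list and 4.00% of the 100 highest (1.10 to 9.93). No parental peak was called within 10 kb of any of the starts. Weaker parental signal, under the level at which peaks were called, would not appear in these lists. With 5 sites, a count of 0 is a description of these sites. One control library served for both the MYC and the parental 786-O list.

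**Figure D2:**
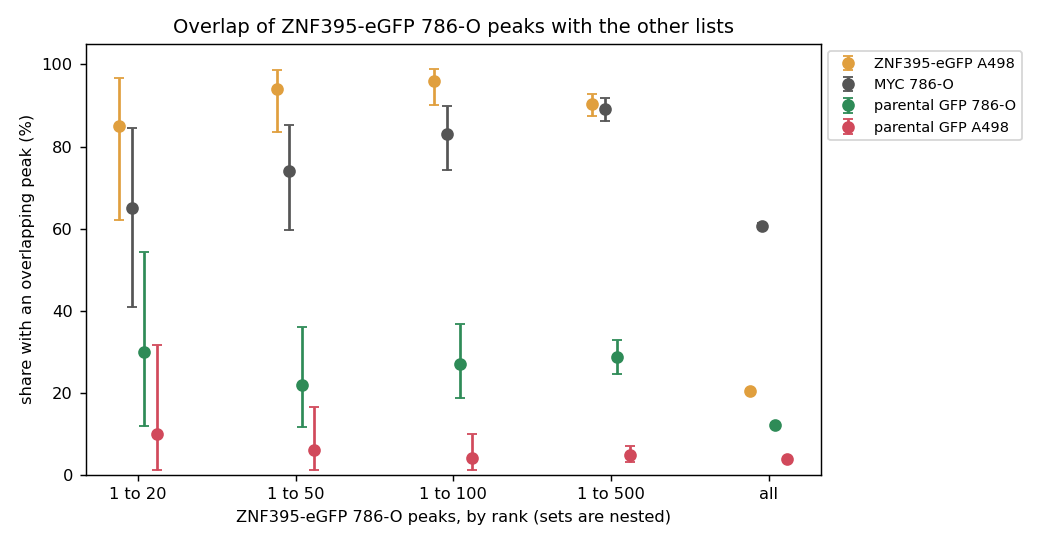
Share (%) of ZNF395-eGFP 786-O peaks that overlap a peak of each other list by at least 1 bp, for nested sets of peaks by rank; points are shares and bars are 95% exact binomial intervals for counting error. The share with MYC is 65.0% in the 20 highest peaks and 89.2% in the 500 highest, and that with A498 is 20.5% over the whole list and 96.0% in the 100 highest.

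The position of MYC against ZNF395 was measured along each gene and was not used in the choice of the genes. At all 4 genes with a MYC peak over the start, the MYC peak reached farther upstream than downstream, and its midpoint lay upstream of the ZNF395-eGFP midpoint of 786-O. The offset was 102 bp at KPNA2, 224 bp at KAT6A, 297.5 bp at ABTB2 and 341 bp at PPFIA3. This side was not particular to MYC. The ZNF395-eGFP midpoint of A498 also lay upstream of that of 786-O at these 4 genes, though at KPNA2 by only 5 bp. At KAT6A it lay farther upstream than MYC (407.5 bp), and at KPNA2, ABTB2 (125.5 bp) and PPFIA3 (169 bp) less far than MYC. The ZNF395-eGFP peak of 786-O reached farther downstream than upstream of the hg19 start at all 5 genes, with 51.4% (PPFIA3) to 62.2% (ABTB2) of its width downstream. At PPFIA3 the sides were nearly equal, with 859 bp upstream and 911 bp downstream. How often other strong peaks show these directions was not counted, so the directions have no background here. The part of the MYC peak downstream of the start was 2.12% at PPFIA3, 26.7% at ABTB2, 41.3% at KAT6A and 47.6% at KPNA2. MYC peaks were narrower than the ZNF395-eGFP peaks at all 4 genes, and 2 of them, at KAT6A and PPFIA3, lay wholly inside. Over the 83 of the 100 highest 786-O peaks with a MYC peak, the median MYC width was 69.8% of the ZNF395-eGFP width. The median share of the MYC peak inside was 100%, so a narrower MYC peak and one wholly inside are each the usual case. In relative width KAT6A (31.6%) and PPFIA3 (37.2%) were below the lower quartile of 46.2%, with 7 and 9 of the 83 at or below them. KPNA2 (89.5%) and ABTB2 (69.9%) were not. The share inside was 93.4% at KPNA2 and 80.8% at ABTB2, the latter below the lower quartile of 91.3%.

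**Figure D3:**
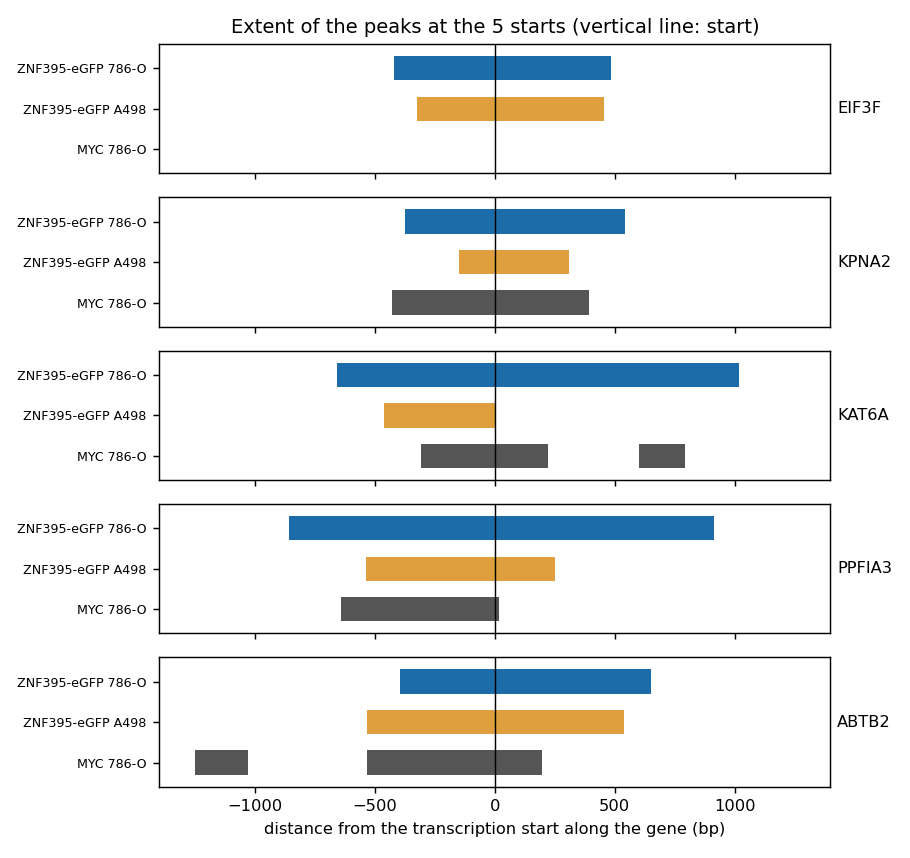
Extent of each called peak (bars) in ZNF395-eGFP 786-O, ZNF395-eGFP A498 and MYC 786-O, as distance in bp along the gene from its transcription start (vertical line), with upstream to the left. The MYC bar over the start reaches farther to the left than to the right at KPNA2, KAT6A, PPFIA3 and ABTB2, and EIF3F has none.

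The A498 peaks did not share 1 pattern. They reached farther downstream at EIF3F, KPNA2 and ABTB2 and farther upstream at KAT6A and PPFIA3. Their midpoints lay upstream of those of 786-O at 4 genes, by 5 bp (KPNA2), 125.5 bp (ABTB2), 169 bp (PPFIA3) and 407.5 bp (KAT6A), and downstream at EIF3F. Among the 96 of the 100 highest 786-O peaks with an A498 peak, the median distance between midpoints was 77.75 bp (quartiles 40.4 and 146). KAT6A was at the upper end, with 92 of the 96 at or below its distance, and KPNA2 at the lower end, with 4 at or below. For MYC the median over 83 such peaks was 102.5 bp (quartiles 58.75 and 265), and KPNA2 lay at it, while PPFIA3 and ABTB2 exceeded the upper quartile. A wide peak leaves more room for such a distance, and the lists give no summit within a peak.

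Widths separated the 5 sites into 3 of moderate and 2 of large width. EIF3F (907 bp), KPNA2 (917 bp) and ABTB2 (1045 bp) were near the median of 972.5 bp over the 100 highest 786-O peaks (quartiles 733 and 1234). KAT6A (1676 bp) and PPFIA3 (1771 bp) were wider than most, with 88 and 93 of the 100 at or below them. For the overlapping A498 peaks the median was 488.5 bp, and the median over sites of the A498 width as a share of the 786-O width was 52.5%. KPNA2 (49.8%) and PPFIA3 (44.6%) were close to that share, KAT6A was low at 27.7%, and EIF3F (86.1%) and ABTB2 (102%) were high. The A498 list is shorter and its peaks are narrower in general, with a median width of 245 bp against 393 bp in 786-O, so a narrower A498 peak is the usual case.

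**Figure D4:**
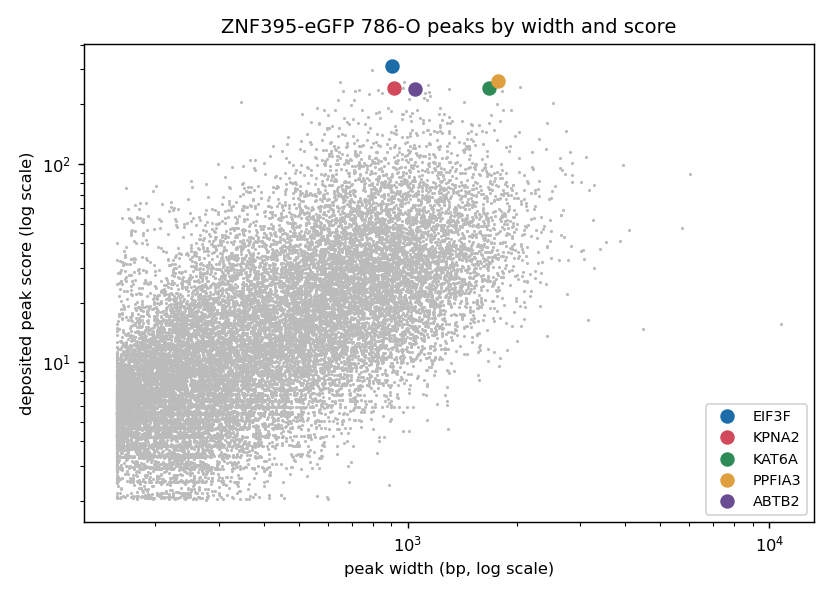
Deposited score against width (both on log scales) of the 20034 ZNF395-eGFP peaks of 786-O (grey), with the strongest peak at each of the 5 genes in colour. The 5 peaks, chosen by rank, lie at the top of the scores with widths from 907 to 1771 bp, and many lower peaks are as wide or wider.

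The surroundings of the starts also differed. EIF3F stood alone: its peak was the only ZNF395-eGFP 786-O peak within 100 kb, and the next was 271 kb downstream (chr11:8280258-8280431, rank 17167). One MYC peak (rank 18899) and 1 weak A498 peak (rank 5463) lay 81.4 and 94.2 kb downstream. KAT6A had 1 other ZNF395-eGFP 786-O peak in that range, 88.5 kb upstream, with rank 16010 in 786-O and an overlapping A498 peak of rank 4651. The median over the 100 highest 786-O peaks was 4 ZNF395-eGFP 786-O peaks within 100 kb, the strong peak included (quartiles 2 and 6).

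PPFIA3, on gene-dense chromosome 19, had 9 ZNF395-eGFP 786-O peaks and 9 MYC peaks within 100 kb. Its 8 other ZNF395-eGFP peaks were weak, with ranks from 13285 to 18911, and 5 of them overlapped MYC and none A498. ABTB2 had 4 others, with ranks from 15130 to 19888, of which 2 overlapped MYC and none A498. Around KPNA2 the 3 others were stronger, with ranks from 3594 to 9033, and all 3 overlapped MYC. One of them, 15.6 kb upstream of KPNA2, was called in 4 of the 5 lists: rank 4738 in ZNF395-eGFP 786-O (chr17:66015923-66016509), 3486 in A498, 8327 in MYC and 756 of 3361 in parental 786-O. It was the only parental peak of either line within 100 kb of any of the 5 starts, and the peak at the KPNA2 start itself had none.

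**Figure D5:**
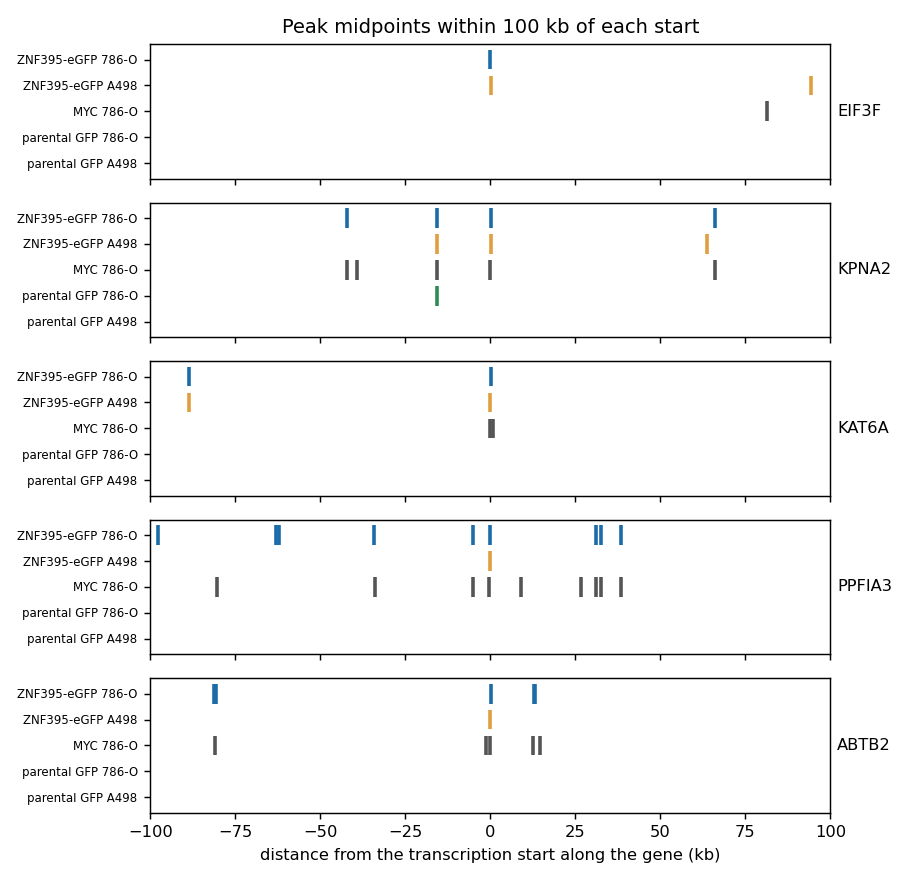
Midpoints of all peaks of the 5 lists (1 row each) within 100 kb of the 5 starts, as distance in kb along each gene, upstream to the left. EIF3F has 1 ZNF395-eGFP 786-O peak and PPFIA3 has 9, and the only parental peak is 15.7 kb upstream of KPNA2.

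Sites of the most similar pattern were sought among 786-O peaks called in the same of the other 4 lists, by the sum of absolute differences in log10 rank. For EIF3F, out of 349 other sites with an A498 but no MYC peak, these were chr5:25544631-25545427 (rank 2 in 786-O and 12 in A498) and chr2:39455162-39455812 (ranks 4 and 37). The other genes were compared with 2471 sites each over 3 lists. KPNA2 was closest to chr16:89159947-89160853 (rank 9 in 786-O, 25 in A498 and 5171 in MYC) and then to KAT6A, and KAT6A to KPNA2 and then to the same site on chromosome 16. PPFIA3 was closest to chr12:4429864-4430999 (ranks 6, 9 and 5204) and ABTB2 to chr17:8286171-8287319 (ranks 25, 16 and 1909). Both had chr16:68297870-68298840 (ranks 10, 8 and 3785) as the second site.

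Against all sites found in both tagged lines and in no parental list of the same line, EIF3F belonged to the smaller group. Such sites without a MYC peak numbered 350, with a median width of 453 bp, and those with one numbered 2477, with a median of 847 bp. EIF3F, with 907 bp, was the highest-ranked of the 350, which its rank 1 in the whole 786-O list fixed in advance. Of the 350, 12 were among the 100 highest 786-O peaks. KPNA2, KAT6A, PPFIA3 and ABTB2 were among the 2477, of which 58 were in the 100 highest. The median rank in 786-O was 5517 without and 3169 with MYC, and in A498 it was 2668 and 2801.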

How the data were processed

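ChIP-seq peak lists of 5 libraries were used; the 4 input samples entered only as the authors' controls. The submitters' processing notes name hg19, BWA and MACS2, without versions or settings. Peak names in the deposited lists record merging, sorting and a mapping-quality step, and show that the authors called each library singly against 1 control library. The deposited score was taken to be a −log10 p or q, since the lowest score of each list is slightly over 2, which fits a threshold of 0.01; whether p or q is not stated.

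Starts (hg19) were given with the genes. Peaks within 10 kb were taken, ranked by score (ties by width, then position) and compared by overlap of at least 1 bp; the peak named for a gene is its strongest in tagged 786-O, and the best-ranked overlapping peak of each other list. Coordinates count from 1. Genes, lists and rules were chosen with earlier results of these data known. Shares carry exact (Clopper-Pearson) 95% intervals, which treat peaks as independent. Promoter windows and gene names came from RefSeq GRCh38.p14 tables, with the first listed window per gene; 4 of the 5 genes matched (not KAT6A). Software was Python 3.11.15 with pandas 2.3.3, scipy 1.17.1, numpy 2.4.6 and matplotlib 3.10.9. Overlap code was tested on 2000 simulated peaks, with 0 wrong, and on 20034 moved peaks, where 0 differed from bedtools 2.31.1. Alternatives covered overlap rules (for the shares of all and of the 100 highest peaks, added after seeing the data), windows, list thresholds, ranking and strand.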

Additional observations from a re-analysis of the deposited data

How the results depend on the processing

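Of the 192 values under alternatives, 135 stayed and 57 moved. Counts, ranks and distances stayed when within 1.5 times the reported value, and shares when within the 95% interval of the reported share. The counts of genes with an overlapping peak depended on the overlap rule. With 50% reciprocal overlap 2 of 5 genes had an A498 peak (7.18% of all ZNF395-eGFP 786-O peaks did) and 2 a MYC peak (40.0%). By its construction this rule drops a peak that covers under 50% of a wider partner. With midpoints within 200 bp, 1 gene had a MYC peak (KPNA2, at 102 bp, against 46.0% of all peaks) and 4 an A498 peak (15.7%). In the upper 50% of each list by score the counts were 5 (A498) and 4 (MYC), as reported. Counting any MYC peak within 10 kb gave 4, and any parental peak 0 in both lines. Ranks by width put EIF3F at 2983 and PPFIA3 at 260 in 786-O. No paired analysis was possible because each group is 1 library. Depth behind single peaks is unknown.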

Other observations

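Of 24 other genes of the eIF3 complex, the importins, the MYST acetyltransferases and their partners, the liprins and the ABTB genes with a promoter window in the RefSeq table, 6 held GCCGGCG (14.97% of all protein-coding windows did) and 21 held CCGG (75.8%). Those with GCCGGCG included KPNA1, the only one of 3 other importins, and 3 of 5 other liprins (PPFIA1, PPFIA4 and PPFIBP2), while PPFIA3 itself had none. None of 7 other eIF3 subunits held it, as EIF3F did not. CACGTG was in 5 of the 24, among them EIF3K, and in 8.88% of protein-coding windows. No difference of these genes from other genes was tested. ZNF395-eGFP peaks at these genes were not analysed here, since no hg19 positions for them were used.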
